A study of Homo sapiens with 9 samples.

Results

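The YAP/TAZ gene set held 10 genes, chosen by name with a rule that used no measured value, although earlier results of these data were known. They were the coactivators YAP1 and WWTR1 (the gene for TAZ), their DNA-binding partner TEAD1 and the targets CCN1, CCN2 and ANKRD1. The others were the regulators AMOTL1, AMOTL2, AJUBA and LATS2. All 10 were found among the 60199 gene symbols of the count table, and all 10 passed the filter on low counts. Poly-A RNA was sequenced from 3 cultures of each of 3 human lines that all derive from MCF10A, an immortalised, non-tumorigenic mammary epithelial line. CT was parental MCF10A, labelled as not transformed and grown without supplement, which here means BMP2 and IL6. The paper's medium for MCF10A itself held horse serum, insulin, hydrocortisone, cholera toxin and EGF. MC26 and M1B26 were labelled as transformed and were kept in medium with BMP2, a bone morphogenetic protein, and IL6, an inflammatory cytokine. MC26 came from the unsorted line, while M1B26 came from cells sorted for the BMP receptor BMPR1B, of which 3 soft-agar clones were picked and expanded, so M1B26 also carries a sorting and a cloning step, and whether its 3 libraries are separate clones is not given in the sources used here. The paper reports that sorted cells transformed much faster than unsorted ones, within a few weeks of treatment. Length of exposure may therefore differ between MC26 and M1B26 as well. No culture time or library batch was given per library, and supplement, transformation and any batch that followed the lines cannot be told apart.

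YAP and TAZ are transcriptional coactivators that carry the output of the Hippo pathway. When the kinases LATS1 and LATS2 phosphorylate them they are held in the cytoplasm or degraded, and when they are not phosphorylated they enter the nucleus, bind TEAD factors on DNA and switch on genes such as CCN1, CCN2 and ANKRD1. In mammary epithelium they respond to cell density, shape and matrix stiffness. Because this control acts largely on the proteins, transcript levels of YAP1 and WWTR1 do not measure YAP/TAZ activity.

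TEAD factors recognise a short DNA element, written here as GGAATG or its reverse complement CATTCC. The promoters of CCN2, ANKRD1 and YAP1 are shown as examples among the members whose windows hold it. Each sequence is the 250 bases before the RefSeq start on GRCh38.p14, read 5′ to 3′ on the strand of the gene, with the element in capitals.
CCN2 (chr6:131951373-131951622, minus strand): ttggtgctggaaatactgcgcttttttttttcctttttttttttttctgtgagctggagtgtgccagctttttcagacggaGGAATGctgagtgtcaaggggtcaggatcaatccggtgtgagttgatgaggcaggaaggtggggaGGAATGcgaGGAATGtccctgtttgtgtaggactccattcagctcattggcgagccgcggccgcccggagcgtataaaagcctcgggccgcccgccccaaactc
ANKRD1 (chr10:90921088-90921337, minus strand): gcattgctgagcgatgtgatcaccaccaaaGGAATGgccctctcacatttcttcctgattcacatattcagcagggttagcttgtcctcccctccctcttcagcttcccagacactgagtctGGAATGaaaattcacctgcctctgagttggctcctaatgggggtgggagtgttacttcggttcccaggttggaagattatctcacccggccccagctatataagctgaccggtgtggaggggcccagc
YAP1 (chr11:102110197-102110446, plus strand): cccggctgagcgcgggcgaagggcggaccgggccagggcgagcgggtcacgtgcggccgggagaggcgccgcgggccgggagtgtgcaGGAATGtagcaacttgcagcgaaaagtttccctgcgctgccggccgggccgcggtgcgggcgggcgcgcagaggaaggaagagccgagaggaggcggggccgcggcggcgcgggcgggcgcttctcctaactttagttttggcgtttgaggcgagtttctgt
The CCN2 window held 3 elements, whose first bases lay 169, 104 and 95 bases before the start. ANKRD1 held 2 elements, at 220 and 128 bases, and YAP1 held 1, at 162 bases. Of the 8 members with a window, 5 held the element on either strand, the others being AMOTL2 (69 bases) and AJUBA (59 bases), each in 1 of its 2 windows. Counted by window this was 5 of 11, and of the 12 further target genes with a window 5 held the element. The element was found in 11.9% of all 35116 windows of this length, while 0.940% held 2 or more and 0.0826% held 3 or more. A match of letters is a description and not a measured binding site, and CCN1 and TEAD1 were not covered by the promoter table.

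Library totals ran from 21425118 to 80076597 counts assigned to genes. Levels are given in CPM (counts per 1000000 counts of a library, after TMM scaling). Before that scaling, 3 counts stood for 0.14 CPM in the shallowest library and for 0.0375 CPM in the deepest. The biological coefficient of variation over the 15717 genes tested was 10.4%. All 7 basal epithelial markers of the list used reached 1 CPM in every library, as did 5 of 7 luminal markers, while ESR1 and KRT19 lay below it. The summed basal markers were higher in MC26 (13960 to 17659 CPM) than in CT (8435 to 10502) or M1B26 (9484 to 10056). The markers did not move together. KRT6A was 1715 to 2099 CPM in CT and 5047 to 7631 in MC26, while KRT5 was 5774 to 7299 and 5564 to 6694. In M1B26 KRT5 was lower (4633 to 5220 CPM). KRT14 was 461 to 625 CPM there against 42.2 to 61.7 in CT, and TP63 73.8 to 81.7 against 29.3 to 36.0. The summed luminal markers ran from 984 to 1129 CPM in CT, from 695 to 729 in MC26 and from 953 to 1020 in M1B26. COL1A2, COL3A1, PDGFRA and PDGFRB of the 7 fibroblast markers, CDH5 and VWF of the 4 endothelial markers, and PTPRC, CD3E and HLA-DRA of the 4 leukocyte markers used were below 1 CPM in all lines. Summed fibroblast markers were 37.4 to 37.8 CPM in CT, 17.1 to 56.8 in MC26 and 28.5 to 39.9 in M1B26. Summed endothelial markers were 7.53 to 7.78, 1.02 to 1.39 and 2.84 to 4.91 CPM, and summed leukocyte markers 6.90 to 11.0, 9.72 to 17.8 and 33.9 to 48.2 CPM, in the same order. The leukocyte sum was almost all CD14, at 33.8 to 47.9 CPM in M1B26. DCN and COL1A1 carried most of the fibroblast sum, and PECAM1 and KDR most of the endothelial sum. LUM was below 1 CPM in CT and MC26 and at 4.38 to 6.20 CPM in M1B26. The part of these marker differences in the results was not tested. In such bulk RNA, fewer cells that express a gene and less RNA per cell cannot be told apart.

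In M1B26, 6 of the 10 members fell relative to CT and none rose (YAP1, TEAD1, CCN1, CCN2, ANKRD1 and AJUBA), with edgeR's quasi-likelihood test and Benjamini-Hochberg adjustment at 0.05 over all genes tested. ANKRD1 passed the filter on low counts only through CT and 1 MC26 library, so its call was tied to its level in CT, and without it the count was 5 of 9. Over all genes in that comparison 48.9% changed and 23.7% were lower, and the groups did not overlap for 59.0% of genes against 8 of the 10 members. In MC26, 2 members rose (AMOTL1 and LATS2) and none fell, where 38.7% of all genes changed, 18.8% upwards and 19.9% downwards. Groups did not overlap between MC26 and CT for 5 members, against 50.3% of all genes. Between M1B26 and MC26, 5 members were lower in M1B26 (WWTR1, TEAD1, CCN1, AMOTL2 and AJUBA) and none was higher, where 39.5% of all genes changed and 18.4% were lower. Their groups did not overlap for 6 members, against 53.5% of all genes. The median log2 fold change of the 10 members was -0.05 in MC26 against CT, -0.26 in M1B26 against CT and -0.28 in M1B26 against MC26, while that of all genes was 0.0010, 0.0019 and -0.0014. The comparisons share their libraries, the CT libraries entering both contrasts with the parental line. The number of members called in MC26 against CT depended on single libraries, being 6 without MC26 replicate 1, 4 without M1B26 replicate 3, and 1 without CT replicate 1 or without MC26 replicate 3. In M1B26 against MC26 it was 3 without MC26 replicate 1, without MC26 replicate 2 or without M1B26 replicate 2.

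**Figure D1:**
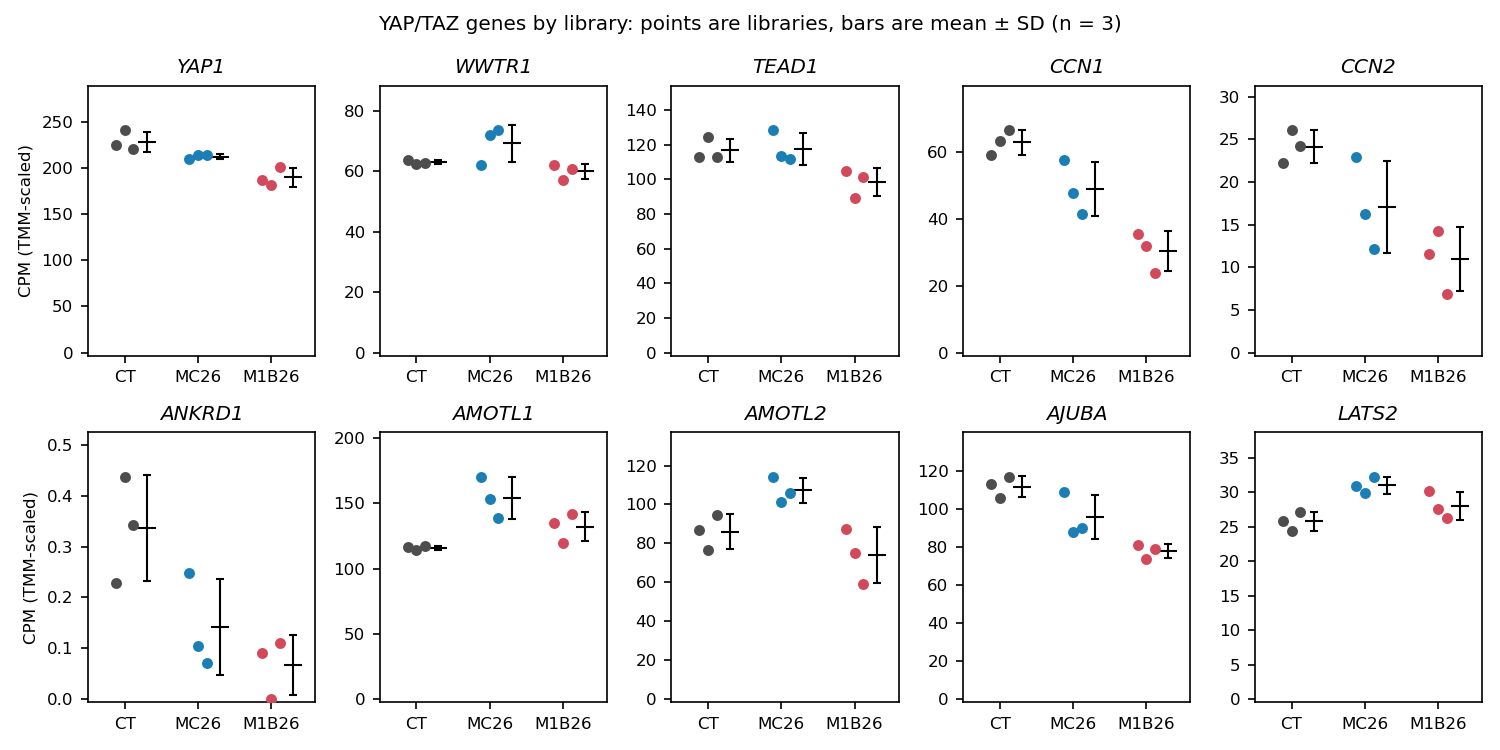
CPM of each of the 10 members (y axes, starting near 0) in each of the 3 libraries of CT, MC26 and M1B26 (points), with the line mean and SD (bar). CCN1 and CCN2 step down from CT to M1B26, with means of 62.9 and 24.1 CPM in CT and 30.3 and 10.9 CPM in M1B26, while AMOTL1 stands highest in MC26.

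**Figure D2:**
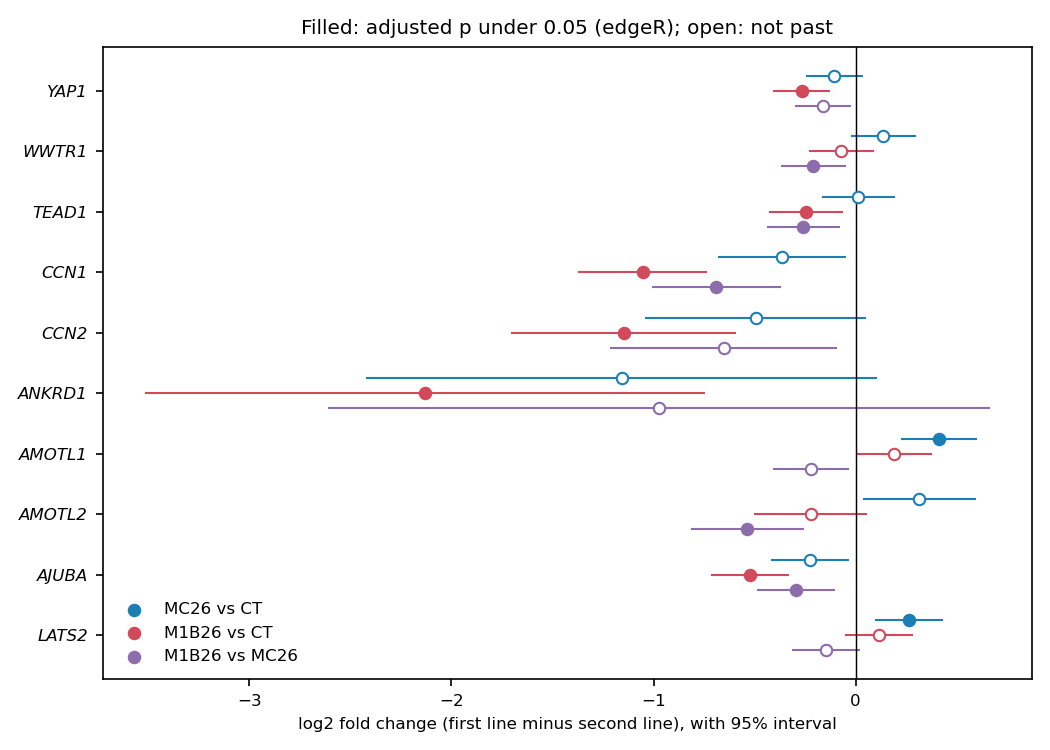
Log2 fold change of each member (x axis) with its 95% interval for both supplemented lines against CT and for the contrast of M1B26 with MC26, filled where the adjusted p was under 0.05. ANKRD1 has the widest intervals, from -3.52 to -0.74 in M1B26 against CT, and no member is called higher in either comparison that involves M1B26.

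YAP1, the paralog of TAZ and the more abundant of the pair here, was read at 225, 241 and 220.4 CPM in the CT libraries, at 209.9, 214 and 214 CPM in MC26 and at 187, 182 and 201 CPM in M1B26. Every M1B26 library lay below every MC26 library, and every MC26 library below every CT library. The log2 fold change in M1B26 against CT was -0.27 (SE 0.06, edgeR adjusted p = 0.00541), a ratio of means of 0.831, and this call held without each library in turn. In MC26 against CT the log2 difference was -0.11 (95% interval -0.25 to 0.04, edgeR adjusted p = 0.218), and in M1B26 against MC26 it was -0.16 (-0.30 to -0.02, adjusted p = 0.0654). The latter passed without CT replicate 2 (adjusted p = 0.0260) and without M1B26 replicate 3 (adjusted p = 0.0476).

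WWTR1, which encodes TAZ, stood at 63.9, 62.5 and 62.7 CPM in CT, at 62.2, 72.2 and 73.5 CPM in MC26 and at 61.9, 57.2 and 60.7 CPM in M1B26. MC26 overlapped CT, and the 3 M1B26 libraries lay just below the lowest library of either other line. Neither line differed from CT by edgeR: the log2 difference was 0.14 in MC26 (95% interval -0.02 to 0.30, adjusted p = 0.162) and -0.07 in M1B26 (-0.23 to 0.09, adjusted p = 0.441). Without MC26 replicate 1 the difference in MC26 was 0.21 with an adjusted p of 0.0413. M1B26 was lower than MC26 by a log2 fold change of -0.21 (SE 0.07, edgeR adjusted p = 0.0413), a call that 6 of the 9 left-out libraries ended. Its adjusted p was 0.0551 without CT replicate 1, 0.144 without MC26 replicate 2, 0.133 without MC26 replicate 3, and 0.0643, 0.142 and 0.0842 without M1B26 replicates 1, 2 and 3. Per kilobase of exon, the ratio of YAP1 to WWTR1 (mean ± SD, n = 3) was 4.81 ± 0.26 for CT, 4.08 ± 0.33 for MC26 and 4.20 ± 0.20 for M1B26. With the mean transcript length as divisor the same ratios were 1.99, 1.69 and 1.74, so the size of the ratio rested on the length used, and the annotated antisense gene WWTR1-AS1 drew 88 counts over all libraries against 27877 for WWTR1.

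TEAD1, a DNA-binding factor that YAP and TAZ need to reach their targets, was read at 113, 124 and 113 CPM in CT, at 128, 113 and 111 CPM in MC26 and at 105, 89.1 and 101 CPM in M1B26. The 3 M1B26 libraries lay below all others, and CT and MC26 overlapped. M1B26 fell by 0.24 on the log2 scale against CT (SE 0.08, edgeR adjusted p = 0.0302) and was lower than MC26 by a log2 fold change of -0.26 (SE 0.08, edgeR adjusted p = 0.0290). The first call was lost without CT replicate 2 (adjusted p = 0.0719), without M1B26 replicate 2 (0.132) and without M1B26 replicate 3 (0.0506). The second was lost without MC26 replicate 1 (0.116), MC26 replicate 2 (0.0522), M1B26 replicate 2 (0.118) or M1B26 replicate 3 (0.0525). MC26 and CT differed by 0.014 on the log2 scale (95% interval -0.17 to 0.20), a difference whose sign changed when single libraries were left out.

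The other TEAD genes encode paralogs of TEAD1 that bind the same element, and they moved in different directions. TEAD4 was read at 33.6, 26.03 and 35.5 CPM in CT, at 48.7, 43.6 and 45.7 CPM in MC26 and at 39.8, 38.8 and 39.5 CPM in M1B26, with no overlap between any lines. It rose in MC26 by a log2 fold change of 0.53 (SE 0.10, edgeR adjusted p = 0.00211) and in M1B26 by 0.30 (SE 0.10, edgeR adjusted p = 0.0293). The M1B26 call was lost without M1B26 replicate 1, 2 or 3 (adjusted p = 0.0741, 0.0614 and 0.0629), and the difference between M1B26 and MC26 of -0.23 (adjusted p = 0.0984) passed without CT replicate 2 (0.00971) and with only the 6 libraries of those lines (0.0161). TEAD3 stood at 17.4, 12.9 and 17.8 CPM in CT and at 13.7, 15.4 and 15.2 CPM in MC26, which overlapped, and at 10.8, 9.78 and 11.0 CPM in M1B26, below both. It fell in M1B26 against CT by 0.62 on the log2 scale (SE 0.12, edgeR adjusted p = 0.00149) and was lower than in MC26 by -0.48 (SE 0.12, edgeR adjusted p = 0.00859), while MC26 against CT passed only without CT replicate 2 (-0.25, adjusted p = 0.0450). TEAD2, with line means of 27.5 CPM (CT), 28.0 CPM (MC26) and 25.6 CPM (M1B26), passed the test in no comparison. Divided by exon length, TEAD4 made up 35.3% ± 2.7 (SD, n = 3) of the summed TEAD1 to TEAD4 level of CT, 44.5% ± 1.2 of that of MC26 and 44.9% ± 1.2 of that of M1B26. The share of TEAD1 was 27.9%, 24.2% and 23.8% and that of TEAD3 13.3%, 10.7% and 8.96% in the same order. CT summed to 39.3 ± 3.4 CPM per kilobase over these factors, MC26 to 45.4 ± 1.3 and M1B26 to 38.5 ± 1.5. With the mean transcript length as divisor the TEAD4 share was 37.7%, 46.9% and 47.1%, the TEAD3 share 7.63%, 6.04% and 5.04%, and the sum 84.9, 99.4 and 84.8 CPM per kilobase. CT replicate 2, the shallowest library, held the highest TEAD1 value and the lowest TEAD3 and TEAD4 values of its line.

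Vestigial-like cofactors also bind TEAD factors, and VGLL4 is known to compete with YAP for them. VGLL3 was read at 15.6, 18.2 and 15.3 CPM in CT, at 32.6, 37.4 and 34.9 CPM in MC26 and at 31.9, 37.4 and 36.9 CPM in M1B26, so both supplemented lines stood clear of CT and overlapped each other. The log2 fold change against CT was 1.105 in MC26 (SE 0.09, edgeR adjusted p = 9.43e-06) and 1.12 in M1B26 (SE 0.09, edgeR adjusted p = 5.54e-06), and the difference between M1B26 and MC26 was 0.019 (95% interval -0.18 to 0.22, adjusted p = 0.889). VGLL4 stood at 30.1, 28.4 and 29.1 CPM in CT, at 36.1, 37.6 and 40.4 CPM in MC26 and at 44.5, 44.4 and 42.3 CPM in M1B26, with no overlap among the lines. Its log2 fold change against CT was 0.38 for MC26 (SE 0.07, edgeR adjusted p = 0.00123) and 0.58 for M1B26 (SE 0.07, edgeR adjusted p = 4.70e-05), with M1B26 above MC26 by 0.20 (SE 0.07, edgeR adjusted p = 0.0327). That last call was lost without CT replicate 1 (0.0612), CT replicate 3 (0.0506), MC26 replicate 1 (0.114), MC26 replicate 2 (0.101), M1B26 replicate 1 (0.0885) or M1B26 replicate 2 (0.0890). VGLL1 had 0 counts in all 9 libraries, which allows up to 0.14 CPM in the shallowest and 0.0375 CPM in the deepest of them, before TMM scaling and for counting error only.

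**Figure D3:**
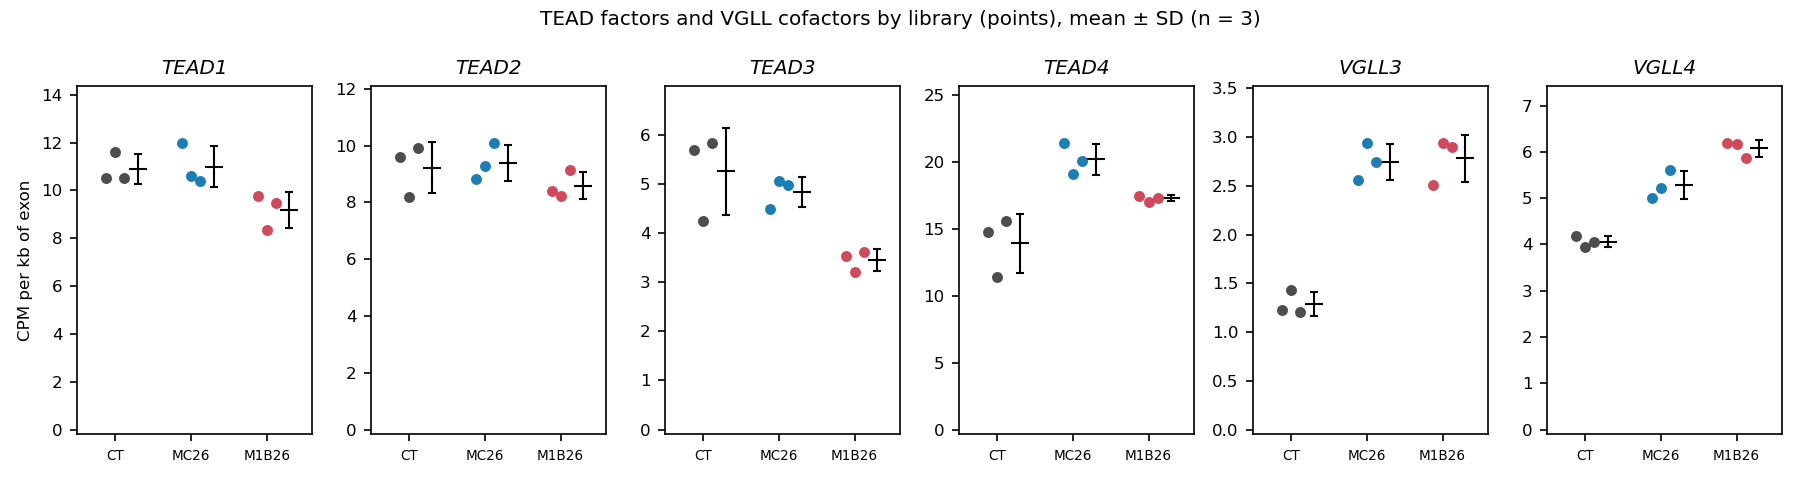
CPM per kilobase of exon (y axes, starting near 0) of the 4 TEAD factors and of VGLL3 and VGLL4 in each library of CT, MC26 and M1B26 (points), with line mean and SD. TEAD4, VGLL3 and VGLL4 stand higher in both supplemented lines than in CT, with TEAD4 means of 31.7 (CT), 46.0 (MC26) and 39.4 CPM (M1B26) before the division by length, while TEAD3 is lowest in M1B26.

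CCN1 (formerly CYR61), a secreted matricellular protein and a classical YAP/TAZ target, was read at 59.0, 63.3 and 66.4 CPM in CT, at 57.6, 47.6 and 41.5 CPM in MC26 and at 35.4, 31.8 and 23.8 CPM in M1B26. The lines did not overlap, and M1B26 lay below MC26 and MC26 below CT. The log2 fold change in M1B26 was -1.05 against CT (SE 0.15, edgeR adjusted p = 1.69e-04), a ratio of means of 0.482, and -0.69 against MC26 (SE 0.15, edgeR adjusted p = 0.00375), and both calls held without each library in turn. MC26 against CT gave -0.36 (95% interval -0.68 to -0.05, edgeR adjusted p = 0.0661), which passed without MC26 replicate 1 (0.0264) and without M1B26 replicate 3 (0.0286).

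CCN2 (formerly CTGF), the connective tissue growth factor of the same family, whose promoter held 3 of the elements shown above, stood at 22.2, 26.03 and 24.2 CPM in CT, at 22.9, 16.3 and 12.2 CPM in MC26 and at 11.6, 14.3 and 6.89 CPM in M1B26. M1B26 lay below CT with no overlap, while MC26 overlapped both. M1B26 against CT gave a log2 fold change of -1.15 (SE 0.25, edgeR adjusted p = 0.00336), a ratio of means of 0.452, which held without each library in turn. MC26 against CT gave -0.49 (95% interval -1.04 to 0.05, edgeR adjusted p = 0.141), or -0.76 (adjusted p = 0.0390) without MC26 replicate 1. M1B26 against MC26 gave -0.65 (-1.21 to -0.09, edgeR adjusted p = 0.0621), which became -0.85 (0.0177) without MC26 replicate 3 and -0.89 (0.0324) without M1B26 replicate 2.

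ANKRD1, an ankyrin-repeat protein known as a nuclear target of YAP, was near the floor of these libraries, with 16, 10 and 28 counts in CT, 10, 4 and 3 in MC26 and 4, 0 and 6 in M1B26. In CPM this was 0.229, 0.437 and 0.342 in CT, 0.249, 0.105 and 0.0706 in MC26, and 0.0902, 0 and 0.111 in M1B26. M1B26 lay below CT with no overlap, and MC26 overlapped both. The log2 fold change in M1B26 against CT was -2.13 (SE 0.63, 95% interval -3.52 to -0.74, edgeR adjusted p = 0.0162), and without CT replicate 3 it was -2.06 with an adjusted p of 0.0509. MC26 against CT gave -1.16 (edgeR adjusted p = 0.135) and M1B26 against MC26 gave -0.97 (adjusted p = 0.323). The gene passed the filter through the 3 CT libraries and 1 MC26 library, so its entry into the test was tied to its level in CT.

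AMOTL1, an angiomotin-like junction protein that holds YAP outside the nucleus and whose family is itself induced by YAP/TAZ, was read at 116, 114 and 117 CPM in CT, at 170.2, 153.5 and 139 CPM in MC26 and at 135, 119.6 and 141 CPM in M1B26. Both supplemented lines lay above CT without overlap, and they overlapped each other. The log2 fold change in MC26 was 0.41 (SE 0.09, edgeR adjusted p = 0.00337), and this call held without each library in turn. M1B26 against CT gave 0.19 (95% interval 0.0002 to 0.38, edgeR adjusted p = 0.0904), which passed without M1B26 replicate 2 (0.26, adjusted p = 0.0413). M1B26 against MC26 gave -0.22 (adjusted p = 0.0586), which passed without CT replicate 2 (0.0488) and without MC26 replicate 3 (0.0196).

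AMOTL2, its paralog with a like role at junctions, stood at 86.8, 76.8 and 94.6 CPM in CT, at 114, 101 and 106 CPM in MC26 and at 87.5, 75.3 and 59.0 CPM in M1B26. MC26 lay above both other lines, which overlapped. M1B26 was lower than MC26 by a log2 fold change of -0.54 (SE 0.13, edgeR adjusted p = 0.00687), a call that held without each library in turn. Against CT, MC26 gave 0.32 (95% interval 0.04 to 0.59, edgeR adjusted p = 0.0711) and M1B26 gave -0.22 (-0.50 to 0.06, adjusted p = 0.171). The MC26 difference passed without M1B26 replicate 1 (0.0428) and without M1B26 replicate 3 (0.0234), and the M1B26 difference without M1B26 replicate 1 (-0.35, adjusted p = 0.0420).

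AJUBA, a LIM-domain protein that binds LATS kinases and restrains them, was read at 113, 105 and 117 CPM in CT, at 109, 87.6 and 90.0 CPM in MC26 and at 80.7, 73.7 and 78.9 CPM in M1B26. M1B26 lay below both other lines, which overlapped. M1B26 fell by 0.52 on the log2 scale against CT (SE 0.09, edgeR adjusted p = 6.00e-04), a ratio of means of 0.697 that stayed past the threshold without each library in turn. It was lower than MC26 by a log2 fold change of -0.30 (SE 0.09, edgeR adjusted p = 0.0200), a call lost without MC26 replicate 1 (0.0834) or M1B26 replicate 2 (0.0833). MC26 against CT gave -0.23 (95% interval -0.42 to -0.03, adjusted p = 0.0610), which passed without CT replicate 2 (0.0475) and without MC26 replicate 1 (-0.33, adjusted p = 0.0101).

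LATS2, the kinase that phosphorylates YAP and TAZ and is also one of their targets, stood at 25.9, 24.3 and 27.1 CPM in CT, at 30.9, 29.8 and 32.2 CPM in MC26 and at 30.2, 27.6 and 26.2 CPM in M1B26. MC26 lay above CT, and M1B26 overlapped both. It rose in MC26 by a log2 fold change of 0.26 (SE 0.08, edgeR adjusted p = 0.0189), a call lost without CT replicate 1 (0.0571), without MC26 replicate 3 (0.0523) or with library totals in place of TMM scaling (0.0673). M1B26 differed from CT by 0.12 (95% interval -0.05 to 0.29, edgeR adjusted p = 0.228) and from MC26 by -0.15 (-0.31 to 0.02, adjusted p = 0.150). Its paralog LATS1 was read at 35.4, 41.4 and 37.1 CPM in CT, 41.2, 41.5 and 41.4 CPM in MC26 and 35.6, 33.1 and 37.2 CPM in M1B26, and was lower in M1B26 than in MC26 by a log2 fold change of -0.23 (SE 0.07, edgeR adjusted p = 0.0321). This call was lost without MC26 replicates 1, 2 or 3 (0.0658, 0.0848 and 0.0608) and without M1B26 replicates 1 or 2 (0.0680 and 0.119). LATS1 was not called against CT, apart from MC26 without CT replicate 2 (0.19, adjusted p = 0.0418).

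Compared per kilobase of exon in CT, YAP1 was the highest member at 36.3 CPM per kilobase, followed by AJUBA (19.0 ± 0.97), CCN1 (17.0 ± 1.01), AMOTL2 (13.3 ± 1.4), AMOTL1 (11.5 ± 0.16), TEAD1 (10.9 ± 0.64), CCN2 (10.3 ± 0.82), WWTR1 (7.54 ± 0.09), LATS2 (4.58 ± 0.25) and ANKRD1 (0.188 ± 0.058, SD, n = 3 for each). Neighbours in this order from AJUBA to CCN1 and from AMOTL1 through TEAD1 to CCN2 lay within the sum of their SDs of each other. The order rested on the length used. Divided by the mean transcript length, the levels in CT were 80.0 CPM per kilobase for AJUBA, 79.8 for YAP1, 45.6 for AMOTL2, 40.1 for WWTR1, 31.0 for CCN1, 29.2 for AMOTL1, 27.3 for TEAD1, 10.3 for CCN2, 8.52 for LATS2 and 0.188 for ANKRD1.

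The members lie on 7 chromosomes, and in each comparison the median over a member's neighbours was nearer to 0 than the member or lay on the other side of 0. CCN2, whose log2 fold change in M1B26 against CT was -1.15, had 11 tested genes starting within 2 Mb of it, with a median of 0.42. For CCN1, at -1.05, the median of its 21 neighbours was -0.06, and for AJUBA, at -0.52, that of 72 neighbours was 0.06. For YAP1, at -0.27, that of 10 neighbours was 0.15. AMOTL1, at 0.41 in MC26 against CT, had 21 neighbours with a median of -0.04. For some members the neighbours went the same way. In M1B26 against MC26 AMOTL2 was at -0.54 and its 18 neighbours had a median of -0.23, with 11 of them called. TEAD1 was at -0.26 there and its 14 neighbours had a median of -0.18, with 6 called.

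The wider Hippo list of 29 further genes held the kinases upstream of LATS, their adaptors and membrane regulators. It was chosen with earlier results of these data known. Of the 27 tested, 9 rose and 6 fell in MC26 against CT, 6 rose and 11 fell in M1B26 against CT, and 1 was higher and 11 were lower in M1B26 than in MC26. The shares changed were 55.6%, 63.0% and 44.4%, beside 38.7%, 48.9% and 39.5% of all genes, and the medians were 0.04, -0.17 and -0.23. FAT4, an atypical cadherin upstream of the pathway, was read at 25.3, 36.5 and 34.4 CPM in CT, at 19.6, 17.0 and 15.1 CPM in MC26 and at 10.4, 8.02 and 7.74 CPM in M1B26, with no overlap. Its log2 fold change was -0.89 in MC26 and -1.87 in M1B26 against CT (adjusted p = 0.00120 and 6.71e-06 by edgeR), and -0.98 in M1B26 against MC26 (adjusted p = 8.90e-04). WWC3, of the KIBRA family of scaffolds that activate LATS, stood at 36.7 to 39.7 CPM in CT, 41.0 to 43.7 CPM in MC26 and 23.1 to 25.2 CPM in M1B26. M1B26 was lower than CT by -0.66 and than MC26 by -0.81 (adjusted p = 2.25e-05 and 1.22e-05 by edgeR).

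MAP4K4, a kinase that can phosphorylate LATS, rose in MC26 from 261 to 267 CPM in CT to between 355 and 497 CPM, a log2 fold change of 0.76 (SE 0.11, edgeR adjusted p = 3.54e-04), and in M1B26 to between 349.5 and 384 CPM (0.48, SE 0.11, adjusted p = 0.00417). PTPN14, a phosphatase that binds YAP and is counted among its targets as well, fell from 165 to 182 CPM in CT to 117 to 133 CPM in MC26 and 92.6 to 120.3 CPM in M1B26. Its log2 fold changes were -0.48 and -0.66 (adjusted p = 0.00307 and 2.62e-04 by edgeR). AMOT, the founding angiomotin, did not pass the filter in these libraries.

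A further list of 17 YAP/TAZ target genes, drawn from a published list of targets across cancers without the members, split by direction. This list too was chosen with earlier results of these data known. In MC26 against CT 4 rose and 7 fell, in M1B26 against CT 5 rose and 8 fell, and in M1B26 against MC26 1 was higher and 7 were lower. The shares changed were 64.7%, 76.5% and 47.1%, beside 38.7%, 48.9% and 39.5% of all genes. The medians were -0.04, -0.48 and -0.19, beside 0.0010, 0.0019 and -0.0014 for all genes. The last count was 5 without MC26 replicate 2 or without M1B26 replicate 2. NT5E, the ecto-nucleotidase CD73, rose from 74.3, 88.3 and 88.1 CPM in CT to 411, 338 and 225 CPM in MC26 and to 179, 178 and 177 CPM in M1B26. Its log2 fold change was 1.96 in MC26 (SE 0.17, edgeR adjusted p = 1.19e-05) and 1.09 in M1B26 (SE 0.17, edgeR adjusted p = 3.77e-04), with M1B26 below MC26 by -0.87 (adjusted p = 0.00228). GADD45A, a stress-induced growth arrest gene, rose by 0.87 and 0.68 (adjusted p = 9.03e-04 and 0.00272 by edgeR).

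TGFB2, a transforming growth factor beta ligand, fell the furthest of the named targets, from 8.07, 9.87 and 8.70 CPM in CT to 0.373, 0.941 and 1.34 CPM in MC26 and 0.654, 0.615 and 0.813 CPM in M1B26. The log2 fold changes were -3.31 and -3.66 (SE 0.30 and 0.31, adjusted p = 1.43e-05 and 5.42e-06 by edgeR). RBMS3, an RNA-binding protein, fell from 14.5 to 17.1 CPM in CT to 4.60 to 8.21 CPM in MC26 and 5.54 to 6.77 CPM in M1B26, by 1.38 and 1.41 on the log2 scale (adjusted p = 1.80e-04 and 9.65e-05). The target genes of this list called in MC26 against CT went both ways. Of the targets CCN1, CCN2 and ANKRD1 none was called there with all libraries and the filter, but CCN1 passed with library totals (adjusted p = 0.0249 by edgeR), without the filter (0.00357) and with only the 6 libraries compared (0.0410), and CCN2 passed without the filter (0.00357). Without the filter the CCN2 log2 difference stayed at -0.49, with an SE of 0.13 in place of 0.25.

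Spread among the MC26 libraries was wide for F3, the tissue factor gene, at 329, 230.0 and 131 CPM against 127, 142 and 136 CPM in CT, with which it overlapped, and 118, 100.4 and 72.5 CPM in M1B26. The MC26 value against CT was 0.77 (edgeR adjusted p = 0.0408), or 0.42 (0.187) without MC26 replicate 1. It was also lost without CT replicates 1, 2 or 3 (0.110, 0.0760 and 0.0805), MC26 replicate 2 (0.0849) or M1B26 replicate 2 (0.0585). M1B26 lay below MC26 by a log2 fold change of -1.25 (SE 0.27, edgeR adjusted p = 0.00427). CCDC80, a matrix-associated secreted protein, followed the same order among the MC26 libraries (48.0, 31.1 and 13.2 CPM) and was lower in M1B26 than in MC26 by -0.95 (SE 0.33, edgeR adjusted p = 0.0426). That call was lost without CT replicates 1 or 2 (0.0517 and 0.0550), MC26 replicate 1 (-0.47, adjusted p = 0.213), MC26 replicate 2 (0.0952) or any M1B26 replicate (0.102, 0.109 and 0.0958). NUAK2, a kinase and YAP target, was the 1 gene of this list called higher in M1B26 than in MC26, at 18.7, 16.6 and 19.4 CPM against 13.7, 11.7 and 15.3 CPM (log2 fold change 0.43, SE 0.11, edgeR adjusted p = 0.0124). Without MC26 replicate 2 its adjusted p was 0.0587.

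**Figure D4:**
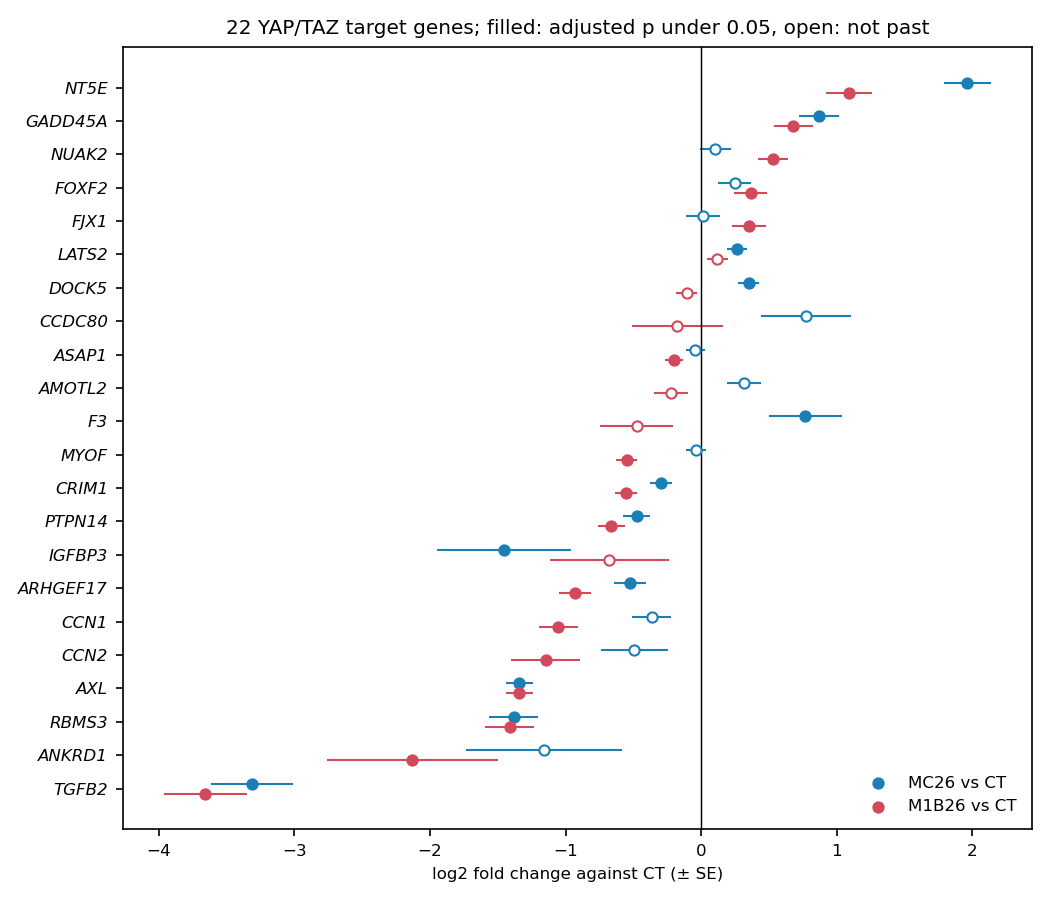
Log2 fold change against CT of the 17 further target genes and of the 5 members on the same published list in MC26 and in M1B26 (x axis, lines ± SE), filled where the adjusted p was under 0.05. NT5E and GADD45A lie to the right of 0 in both lines and TGFB2 and RBMS3 to the left, TGFB2 reaching -3.66 in M1B26; both lines are set against the same CT libraries.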

How the data were processed

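Counts of reads per gene were deposited as one table for 9 libraries of poly-A RNA. Per the submitters' notes the authors aligned to GRCh38 with STAR 2.7.3a and used Salmon 1.1.0; the counting program and strand setting are not given in the sources used here. Supplement concentrations differ between the labels and the methods and are not printed. The 3 groups came from the labels. Here, genes were filtered with edgeR 4.0.16 (filterByExpr, minimum count 10), scaled by TMM (factors 0.968 to 1.07) and fitted over all 9 libraries by line with the quasi-likelihood test in R 4.3.3, 2-sided, with Benjamini-Hochberg adjustment over the 15717 genes tested and a threshold of 0.05. CPM are TMM-scaled. Exon lengths, positions and overlapping genes came from a GENCODE annotation of GRCh38, promoters from RefSeq. The procedure was also run on data simulated from its own fitted means and spread. Far fewer genes were changed there than were called here, and none differed between M1B26 and MC26. No result here rests on that run. Alternatives were RLE scaling factors in place of TMM, total counts without scaling, no filter, DESeq2 1.42.0, only the 6 libraries compared, a replicate block and each library left out.

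The members and lists were chosen with earlier results of these data known. All 10 members were named, as were paralogs of members, the VGLL genes and, per list and comparison, the 2 highest and 2 lowest called genes at a mean of at least 1 CPM. P-values measure the spread between these cultures. Intervals and floors cover counting and fitted error only. A result on 1 listed marker is not reported here.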

Additional observations from a re-analysis of the deposited data

Results flagged for a closer look

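For 14 of the genes named above, the effect against CT was not the same in the 2 supplemented lines when M1B26 was tested against MC26 itself (edgeR's quasi-likelihood test, adjusted p under 0.05), and 5 of them were members. That was 5 of the 10 members, where 39.5% of all genes tested were called in this comparison. Some of the 14 were named for extreme values in these data, so no share is drawn from the 14. The log2 difference, M1B26 minus MC26, was -0.21 for WWTR1, -0.26 for TEAD1, -0.69 for CCN1, -0.54 for AMOTL2 and -0.30 for AJUBA. Among the paralogs, partners and other list genes it was -0.48 for TEAD3, -0.23 for LATS1, 0.20 for VGLL4, -0.98 for FAT4 and -0.87 for NT5E. It was -0.81 for WWC3, -1.25 for F3, -0.95 for CCDC80 and 0.43 for NUAK2, which were named for their values in this very comparison, so theirs are descriptions. FAT4 was named for its values here and against CT, so its value is a description too. The same holds for NT5E, named for its values against CT, as its MC26 libraries enter here again. VGLL4 met that rule as well, but was named as a TEAD partner whatever its value. The effects of both lines against CT were measured against the same CT libraries. CCN1 and AMOTL2 stayed past the threshold without each library in turn, whereas WWTR1, TEAD1, AJUBA, LATS1, VGLL4, CCDC80 and NUAK2 did not.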

How the results depend on the processing

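With library totals in place of TMM scaling the median of all genes moved to -0.08 in MC26 and -0.09 in M1B26 against CT, and the share of calls that were higher fell from 48.5% to 35.8% and from 51.5% to 39.6%. Members called in MC26 against CT numbered 2, but 5 without a filter on low counts, 4 with only the 6 libraries compared, and 1 to 6 with each library left out. In M1B26 against CT 5 to 7 were called with a library left out. In M1B26 against MC26 8 were called by DESeq2, and 3 to 7 with a library left out. For the 17 further targets that comparison gave 5 to 9. The sign turned for TEAD1 (-0.066 on total counts, -0.048 to 0.066 with libraries left out) and TEAD2 (-0.054 on total counts, -0.048 to 0.081) in MC26 against CT, and for VGLL3 (-0.028 to 0.089), RBMS3 (-0.20 to 0.24) and TGFB2 (-0.71 to 0.10) in M1B26 against MC26 with libraries left out, none of these being called in those comparisons in the main test. The calls for YAP1, CCN1, CCN2 and AJUBA in M1B26 against CT, AMOTL1 in MC26 against CT, and CCN1 and AMOTL2 in M1B26 against MC26 held under every alternative run. Library totals ended the edgeR calls of LATS2 (adjusted p = 0.0673) and F3 (0.0550) in MC26 against CT, TEAD4 (0.0796) in M1B26 against CT and VGLL4 (0.0536) in M1B26 against MC26, where the fit without a filter ended those of WWTR1 (0.0889), LATS1 (0.0757) and VGLL4 (0.1002). DESeq2 and the fit of 6 libraries ended those of F3 in MC26 (0.0632 and 0.0571) and CCDC80 in M1B26 against MC26 (0.0720 and 0.0666). Calls gained included CCN1 and CCN2 in MC26 against CT, as given above, and AJUBA there with library totals (0.0132). AMOTL2 passed there as higher without the filter (0.00668), with the 6 libraries (0.0274) and by DESeq2 (0.0462). In M1B26 against MC26 CCN2 passed as lower without the filter (1.12e-04), with library totals (0.04998) and by DESeq2 (0.0242). YAP1 passed there as lower with the 6 libraries (0.0474) and by DESeq2 (0.0295), and AMOTL1 with library totals (0.0443) and by DESeq2 (0.0410). Without the filter, the log2 differences of CCN1, CCN2 and YAP1 in MC26 against CT stayed near those of the main fit while their SEs moved. The SE of CCN1 went from 0.14 to 0.10 and that of CCN2 from 0.25 to 0.13, while that of YAP1 rose from 0.06 to 0.08. Calls without the filter thus rest on another estimate of the spread. The cause of the changes was not tested.

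Libraries of the same number in different lines deviated together in some pairs only (r of -0.16 to 0.30 in 9 pairs, 3 of them over 0.1). Those 3 were replicate 2 of CT and MC26 (0.30), replicate 1 of MC26 and M1B26 (0.19) and replicate 3 of MC26 and M1B26 (0.20). Pairs of unlike number ran from -0.27 to 0.27. Of the 9 libraries, 0 were closest to their own number in both other lines. Whether the numbers pair samples was not settled, and the main fit did not use them. A replicate block gave 4 called members in MC26 against CT (2 higher, 2 lower), 6 in M1B26 against CT and 5 in M1B26 against MC26, and 5879, 7513 and 6009 genes over all. With the block CCN1 (0.0412) and AJUBA (0.0378) passed in MC26 against CT. In M1B26 against MC26 CCN2 (0.0338) passed, and WWTR1 (0.0625), LATS1 (0.0509), VGLL4 (0.0546) and CCDC80 (0.0752) did not pass (edgeR adjusted p). Depth limited ANKRD1, with 10 counts in all of M1B26, and DCHS1 and IGFBP3, which lay near or below 1 CPM.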

Other observations

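The genes whose levels followed YAP1 most closely over the 9 libraries, by Pearson's r of log2 CPM among 10636 genes at a mean of at least 5 CPM, were PIKFYVE (0.992), STAG1 (0.989), UBR3 (0.988), ELK4 (0.987) and ARHGAP5 (0.985). For CCN2 they were DSEL (0.969), GGCX (0.969), CCN1 (0.952), FP565260.6 (0.952) and ATG10 (0.949). The 9 libraries fall into 3 lines, and each library's depth and scaling enter all of its values, so these values describe likeness over few independent points and carry no test.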
